A study of Mus musculus with 16 samples.

Results

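Grn knockout (KO) primary mouse microglia kept in DMSO were compared with wild-type (WT) microglia kept in DMSO, as 4 libraries against 4, chosen by the genotype and treatment given in the labels. These are 8 of the 16 libraries of the series, and the other 8 received rimeporide. Mixed glia were grown from the cortex and hippocampus of newborn pups, per the labels' protocols, microglia were shaken off the glial layer with no sort named, and the cells had 72 h of DMSO, the vehicle of rimeporide, in both genotypes. The labels describe 4 biological replicates per genotype. The sources used here do not give the mouse strain, the deleted part of Grn or whether pups were pooled.

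Progranulin, the product of Grn, is a secreted glycoprotein that cells also carry to lysosomes, where proteases cut it into granulins. In the brain microglia make much of it. Loss of a copy of the human gene causes frontotemporal dementia, and loss of both copies causes a lysosomal storage disease with lipofuscin.

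Grn itself gave the check of the labels. It stood at 10.7, 15.2, 12.1 and 12.4 CPM in KO, against 1827, 1639.7, 1659 and 1793 CPM in WT. No KO library came near a WT library, and the log2 difference (KO minus WT, with its standard error, as for all differences below) was −7.12 ± 0.14, adjusted p = 3.47e-21. Levels are in CPM, 3' mRNA tags scaled to the library total, given for replicates 1 to 4 in order, and they compare libraries for a gene, not genes with each other.

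Of 12272 genes with enough tags, 2287 passed an edgeR quasi-likelihood test at an adjusted p under 0.05, which is 18.6% of them. In KO 1236 were higher (10.1%) and 1051 were lower (8.56%), and these shares are the background for every list below. The median difference over all tested genes was 0.01. All 4 KO libraries were above all 4 WT libraries for 9.83% of tested genes and below them for 6.80%. Of the 12272, 3911 had an unadjusted p under 0.05. The calls depended on single KO libraries: 1430 genes passed without KO replicate 1 (889 higher and 541 lower), 3345 without KO replicate 2 (1636 and 1709), 1748 without KO replicate 3 (1051 and 697) and 1532 without KO replicate 4 (935 and 597). Leaving out 1 WT library left 1657 to 2339. For gene lists, counts are followed by the median log2 difference of the tested members and, where leaving out 1 of the 8 libraries moves a count by over 1.5 times, by the range of both counts over those 8 fits. Listed members with too few tags are left out, so entry to the test favours members that are high in a group. Genes above a mean of 20 CPM and coding for protein numbered 5781, and of these 635 were higher and 508 lower, with 46 and 10 of them past a 2-fold change.

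Total counts were 7929470, 4422194, 6659395 and 6660529 in KO and 4669787, 3666367, 5818416 and 5736161 in WT, and every RNA integrity number was 10. Processed pseudogenes split from the other genes. Of 933 tested, 349 were lower in KO and 0 were higher (median −0.67), while of 10800 protein-coding genes 1206 were higher and 653 lower. Processed pseudogenes took 1.31%, 1.95%, 1.39% and 1.11% of the counts in KO, against 2.07%, 2.22%, 2.05% and 1.73% in WT. Pseudogene scores were −0.77, 0.12, −0.54 and −1.01 in KO, against 0.13, 0.30, 0.16 and −0.14 in WT, so the score goes with genotype except in KO replicate 2. A fit that also held each library's pseudogene score called 808 genes, 551 higher and 257 lower, of which 690 were shared with the 2287 in the same direction. That fit moves the higher share of the calls to 68.2%, against 54.0%. Genes named below as rising or falling, or as up or down, kept their call under it unless a value is given. Counts over lists often did not, so each list's higher and lower counts under this fit are given last in its brackets, as those with the covariate. Because score and genotype go together in part, a call lost under this fit cannot tell the 2 apart. The part of this axis in the results was not tested.

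The 12 largest increases among well-measured protein-coding genes included genes of neurons and of glia other than microglia. Cntn1, an adhesion protein of axons, stood at 39.6, 56.9, 54.0 and 49.0 CPM in KO, against 0, 1.10, 0.693 and 1.58 CPM in WT (5.82 ± 0.34). Every KO library was above every WT library. Atp1b1, a subunit of the sodium pump, stood at 36.0, 53.5, 56.4 and 48.9 CPM in KO, against 2.73, 3.03, 1.73 and 3.15 CPM in WT (4.20 ± 0.28, adjusted p = 4.67e-10). Gpm6a (3.97 ± 0.28) and Gpm6b (3.85 ± 0.36), related membrane proteins of neurons and glia, rose with Chl1 (4.05 ± 0.28), an adhesion protein of the L1 family, and Dclk1 (3.21 ± 0.27), a microtubule-binding kinase. Ednrb, the endothelin B receptor of astrocytes among other cells, stood at 37.3, 61.9, 44.9 and 37.4 CPM in KO, against 11.8, 13.2, 8.83 and 10.3 CPM in WT (2.04 ± 0.17, adjusted p = 1.55e-08). Its WT values were not near 0, and the groups did not overlap. Fbxo2, which sends glycoproteins to the proteasome, rose by 4.94 ± 0.32, Sparcl1, a protein that astrocytes secrete, by 4.31 ± 0.24, and Chst2, a sulfotransferase of glycans, by 4.02 ± 0.27. Ncan, Rtn1, Nnat, Nrxn2, Scd2 and Mgll were also among the genes with the largest increases or the smallest p among increases, at 5.18 ± 0.26, 4.67 ± 0.21, 3.51 ± 0.33, 4.72 ± 0.28, 2.59 ± 0.14 and 2.01 ± 0.14.

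**Figure D1:**
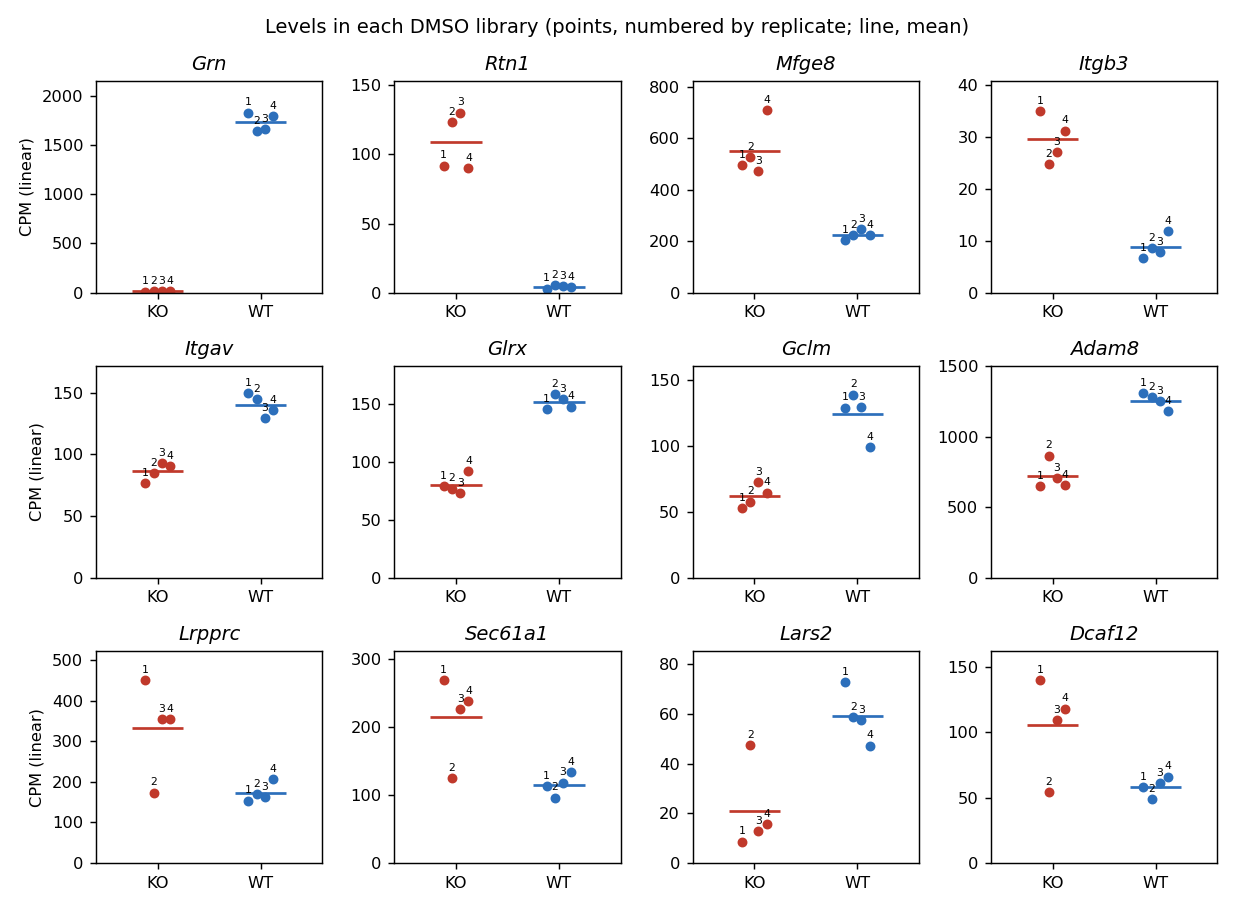
CPM in each library for 12 genes, KO left of WT, with points numbered by replicate, lines at the mean and a linear axis from 0. In the top rows all KO libraries lie on one side of all WT libraries, and for Lrpprc, Sec61a1, Lars2 and Dcaf12 KO replicate 2 lies at the WT level.

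Marker genes of other brain cells moved with these increases. The summed level of neuron markers was 59.8 to 121.1 CPM over KO libraries, against 11.4 to 21.2 CPM in WT. Of 15 listed markers 8 had enough tags for the test, and all 8 were higher. Some were near 0 in WT (Gap43 at a mean of 0.096 CPM), so entry to the test favoured markers high in KO. Of the untested markers, all at low levels, Rbfox3, Snap25, Stmn2 and Nefm averaged higher in KO and Nefl, Gad2 and Slc17a7 lower. Astrocyte markers summed to 79.9 to 112.2 CPM in KO, against 14.7 to 25.1 CPM in WT (7 higher of 9 tested and 12 listed). Oligodendrocyte progenitor markers summed to 35.9 to 57.3 CPM, against 3.6 to 5.3 CPM (5 higher of 6 tested and 8 listed). Groups did not overlap in any of these sums. Oligodendrocyte marker sums overlapped between the groups, at 66.6 to 76.5 CPM in KO and 72.4 to 126.1 CPM in WT, with Mog near 0 in both. Endothelial markers summed to 45.0 to 58.3 CPM in KO and 24.6 to 38.4 CPM in WT. Most of this came from Flt1 (mean 41.0 CPM in KO against 21.7 in WT) and Vwf (12.3 against 5.25 CPM). Pecam1 (0.50 against 1.45 CPM) and Cdh5 (0.12 against 0.45 CPM) averaged lower in KO, and Cldn5, Tek, Esam and Slco1a4 were near 0. Mural markers stood at 2.4 to 5.9 CPM in KO against 4.9 to 9.3 CPM in WT, and fibroblast markers at 10.9 to 14.2 against 8.1 to 14.5 CPM. Markers of ependyma and choroid plexus stood at 3.0 to 40.9 CPM in KO, against 1.8 to 5.8 CPM in WT. Ttr, the thyroid hormone carrier of choroid plexus, made up most of the sum in KO replicates 3 and 4, at 1.5, 6.37, 31.1 and 38.9 CPM in KO, against 3.15, 5.79, 0.693 and 0.525 CPM in WT, and did not pass (adjusted p = 0.0874). Lymphocyte and red cell markers summed to at most 1.4 and 0.7 CPM, monocyte markers to 1.4 to 3.6 CPM in KO and 1.3 to 3.3 CPM in WT, and granulocyte and mast cell markers to 5.5 to 7.2 CPM in KO and 1.7 to 6.0 CPM in WT.

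Microglial markers summed to 4869 to 5326 CPM in KO and 5248 to 5756 CPM in WT, and macrophage markers of the brain's borders to 2131 to 2236 CPM in KO and 2390 to 2562 CPM in WT, the border sums without overlap. Microglial markers were thus present in all 8 libraries, although Siglech and, of the border genes, Lyve1, Cd163 and F13a1 were near 0. Of 8 listed border markers 5 were tested, with 0 higher and 2 lower, Pf4 and Folr2 (median −0.17, range 0 to 1 higher and 2 to 3 lower, 0 and 3 with the covariate). Mrc1 (mean 1087 CPM in KO against 1122 in WT) and Ms4a7 (862 against 971 CPM), most of the border sum, did not pass. Cbr2 averaged higher in KO (2.50 against 1.25 CPM) and did not pass. In bulk libraries more cells of a type and more RNA per cell cannot be told apart. The part of other cells in each increase was not tested.

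**Figure D2:**
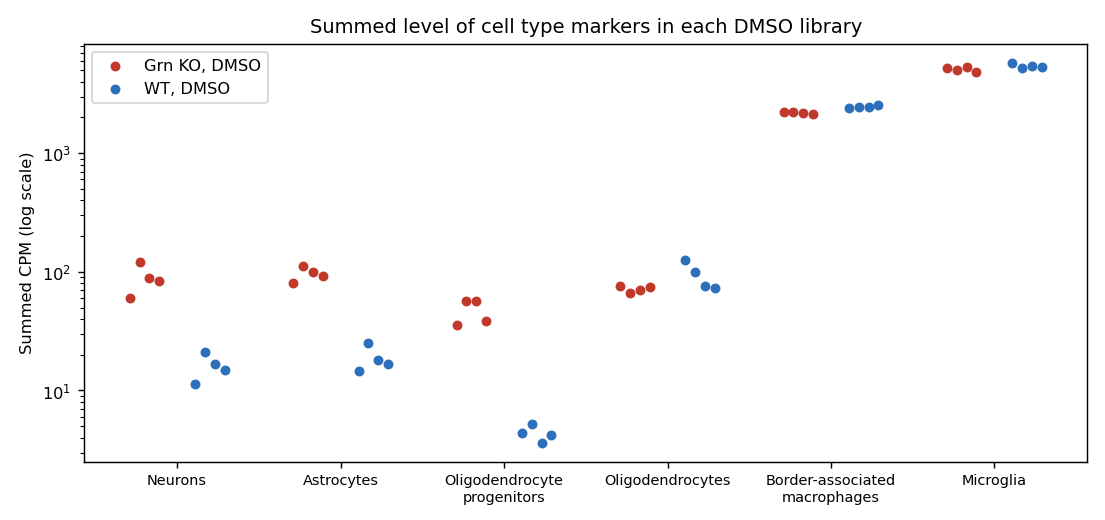
Summed CPM (log axis) of 6 marker lists in each library, KO left of WT within each list. Neuron, astrocyte and oligodendrocyte progenitor sums are higher in all 4 KO libraries, and microglial sums lie between 4869 and 5756 CPM in all 8 libraries.

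Fewer decreases than increases were past a 2-fold change, 10 against 46 among the well-measured genes. Of 17 tested microglial markers 1 was higher and 2 were lower (median −0.11, range 1 to 3 higher and 2 to 4 lower). With the pseudogene covariate 0 were called in either direction. Adam8, a metalloprotease of myeloid cells, stood at 649, 866, 707 and 655 CPM in KO, against 1306, 1279, 1252 and 1179 CPM in WT (−0.80 ± 0.087, adjusted p = 5.65e-07). The groups did not overlap, with KO replicate 2 the highest KO library. Crem, a repressor and activator of cAMP-responsive genes, was at 55.6, 81.0, 48.6 and 52.2 CPM in KO, against 158, 132, 138 and 94.0 CPM in WT (−1.15 ± 0.16, adjusted p = 1.51e-05), and Dmpk, a kinase, at 1.87, 4.78, 1.63 and 2.26 CPM in KO, against 14.1, 16.3, 10.6 and 12.4 CPM in WT (−2.40 ± 0.30, adjusted p = 4.04e-06). Cd72, an inhibitory receptor of myeloid and B cells, fell by 1.03 ± 0.18, Cd14, the LPS co-receptor, by 0.74 ± 0.088, and Plin2, which coats lipid droplets, by 0.64 ± 0.070. Ctla2b, a relative of cysteine protease inhibitors, stood at 117, 124, 119.8 and 104 CPM in KO, against 273, 260.2, 223 and 222 CPM in WT (−1.07 ± 0.092). Gm49391, an unnamed model, had near-equal levels and the same difference within its error (−0.95 ± 0.085), and 3' tags may be split between such neighbours or paralogs, so both are uncertain. So are the glucuronosyltransferases Ugt1a6a (−1.31 ± 0.23), Ugt1a6b (−1.11 ± 0.18), Ugt1a8 (−1.10 ± 0.18) and Ugt1a10 (−1.02 ± 0.16), which share their 3' exons. Ly6e, a GPI-anchored protein, was lower on average (−0.97 ± 0.33, adjusted p = 0.0416), but its KO values of 60.2, 173, 56.4 and 44.5 CPM overlapped the WT values of 277, 108, 90.1 and 167 CPM. Its call ended without KO replicate 1, 3 or 4 or WT replicate 1 or 4, and its adjusted p ran from 7.62e-05 to 0.238 with a library left out and reached 0.633 with the pseudogene covariate.

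Of the genes that fell, 4 of thiol redox or the pentose phosphate pathway are grouped here after their values were seen. The list of selenoproteins and thiol redox genes moved in both directions, with 7 of 28 tested members higher and 4 lower (median 0.10, range 4 to 9 higher and 2 to 6 lower, 4 and 2 with the covariate). Gclm, the modifier subunit of the enzyme that starts glutathione synthesis, stood at 52.9, 57.6, 72.4 and 64.4 CPM in KO, against 129, 139, 129 and 98.7 CPM in WT (−1.0 ± 0.12, adjusted p = 1.48e-06). Glrx, glutaredoxin, stood at 79.5, 77.1, 73.0 and 92.5 CPM in KO, against 146, 159, 155 and 148 CPM in WT (−0.91 ± 0.10, adjusted p = 3.73e-07), and Taldo1, transaldolase of the pentose phosphate pathway, at 295, 325, 307 and 324 CPM in KO, against 519, 501, 520.1 and 438 CPM in WT (−0.66 ± 0.079, adjusted p = 2.50e-06). Txnrd1, cytosolic thioredoxin reductase, was at 121, 148, 143 and 135 CPM in KO, against 215, 225, 209 and 193 CPM in WT (−0.62 ± 0.086, adjusted p = 1.70e-05). No KO library reached a WT library in any of the 4. NRF2 with small MAF proteins binds an antioxidant response element, whose core was searched as TGACNNNGC on both strands in the 250 bases before the start of each gene in RefSeq's table (GRCm38.p6, another build than the counts). Of 32851 promoters 10.2% hold it. Gclm has 1 promoter in the table and Txnrd1 has 3, of which 1 holds the core, while the promoters of Glrx and Taldo1 lack it in this window. The promoters of both genes that hold it are shown, in lower case with the match in capitals, as a description and not as a site shown to be used. Both matches are on the opposite strand to the gene and so read GCNNNGTCA here.
Gclm, chr3:122245307-122245556, + strand: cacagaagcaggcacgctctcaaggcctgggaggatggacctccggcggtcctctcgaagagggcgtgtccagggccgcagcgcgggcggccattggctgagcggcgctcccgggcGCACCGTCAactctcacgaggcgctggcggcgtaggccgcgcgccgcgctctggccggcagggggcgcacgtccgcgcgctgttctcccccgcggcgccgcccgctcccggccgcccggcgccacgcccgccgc
Txnrd1, chr10:82858956-82859205, + strand: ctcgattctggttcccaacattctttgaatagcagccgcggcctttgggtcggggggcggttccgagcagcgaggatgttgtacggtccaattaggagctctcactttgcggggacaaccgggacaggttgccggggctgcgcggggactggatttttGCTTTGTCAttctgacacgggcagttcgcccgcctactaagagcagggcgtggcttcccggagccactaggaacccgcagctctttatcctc

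Of the 54 lists, growth factor receptors had the highest share of called members. Of 29 listed 14 were tested, and of these 10 were higher and 0 lower (median 0.98, 5 and 0 with the covariate). A member near 0 in WT could enter the test through its KO level, so entry favoured members high in KO. Ddr1, a collagen receptor kinase, stood at 40.4, 74.2, 45.7 and 53.4 CPM in KO, against 9.87, 13.8, 9.18 and 9.28 CPM in WT (2.35 ± 0.22, adjusted p = 5.16e-08). Ntrk2, the BDNF receptor, was at 4.73, 11.4, 9.03 and 4.53 CPM in KO, against 0.840, 0.827, 0.866 and 1.93 CPM in WT, and Flt1, a VEGF receptor, at 35.1, 44.8, 39.5 and 44.4 CPM in KO, against 22.1, 16.3, 18.4 and 29.9 CPM in WT (2.64 ± 0.45 and 0.90 ± 0.18). Both separated the groups. Igf1r, the IGF-1 receptor, was at 32.8, 23.7, 37.9 and 35.2 CPM in KO, against 20.6, 17.4, 22 and 22.8 CPM in WT (0.65 ± 0.14, adjusted p = 0.00272, and 1.66e-04 to 0.291 over the alternatives, the highest with the pseudogene covariate). Astrocytes also express Ddr1, Ntrk2 and other members, and the neural marker sums above moved with the list.

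Of 15 secreted growth factors 3 rose and 3 fell (median 0.06, 3 and 2 with the covariate). Igf1, a survival and growth factor that microglia make, was at 1306, 1309, 1361 and 1330.3 CPM in KO, against 1822, 1822, 1948 and 1707 CPM in WT (−0.46 ± 0.061, adjusted p = 8.95e-06), in a narrow band within each genotype. Its binding protein Igfbp4 fell too (−0.59 ± 0.12). Hbegf, an EGF receptor ligand, stood at 20.2, 23.2, 24.1 and 16.1 CPM in KO, against 6.72, 9.92, 8.31 and 11.7 CPM in WT (1.18 ± 0.19, adjusted p = 1.36e-04), and Ptn, pleiotrophin, which many glial and neural precursors make, rose by 4.16 ± 0.46.

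Receptors for dying cells and debris moved in both directions. Mfge8 bridges phosphatidylserine on dying cells to the alpha-v beta-3 integrin. It stood at 496, 526, 471 and 709 CPM in KO, against 204, 224, 246 and 223 CPM in WT (1.29 ± 0.12, adjusted p = 3.71e-08), with no overlap. Of that integrin's chains, which also count in the integrin list, Itgb3 rose, at 35.0, 24.8, 27.1 and 31.2 CPM in KO, against 6.72, 8.55, 7.79 and 11.9 CPM in WT (1.75 ± 0.19, adjusted p = 5.92e-07), and Itgav fell, at 76.9, 85.1, 92.7 and 90.7 CPM in KO, against 149.5, 145, 129.7 and 136 CPM in WT (−0.70 ± 0.087, adjusted p = 4.32e-06). Cd36, a scavenger receptor for oxidised lipids, was among the most tagged of these genes and fell by 0.62 ± 0.093. Of the 24 phagocytic and efferocytic genes 5 rose and 3 fell (median 0.10, range 4 to 9 higher and 3 to 4 lower, 3 and 3 with the covariate). Of 13 integrins 3 rose and 4 fell (median −0.18, range 3 higher and 2 to 5 lower, 2 and 1 with the covariate), Itgax, the CD11c chain, among those that rose (0.92 ± 0.21).

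Lectins and inhibitory receptors changed in both directions. Of 27 tested, 4 rose and 6 fell (median −0.06, 2 and 3 with the covariate). Clec7a, the beta-glucan receptor Dectin-1, was at 609, 585, 602 and 653 CPM in KO, against 389.6, 368, 402 and 423 CPM in WT (0.63 ± 0.085, adjusted p = 1.17e-05). Clec4d, a related lectin of the Dectin-2 cluster, was at 165, 161, 155 and 172 CPM in KO, against 276, 257, 275 and 225 CPM in WT (−0.66 ± 0.081, adjusted p = 3.18e-06), and Clec4n, Dectin-2 itself, fell by 0.79 ± 0.13. These 3 separated the groups in opposite directions. The 26 chemoattractant and other G protein-coupled receptors held 4 that rose and 7 that fell (median −0.06, 2 and 3 with the covariate). The C5a receptor gene C5ar1 stood at 621, 539, 552 and 574 CPM in KO, against 790.5, 805, 818 and 749 CPM in WT (−0.47 ± 0.071, adjusted p = 5.15e-05), and Adgre1, the F4/80 antigen, at 478, 469.8, 466 and 464 CPM in KO, against 644, 619, 683 and 606 CPM in WT (−0.44 ± 0.062, adjusted p = 2.01e-05). Both were lower in every KO library. P2ry1, an ADP receptor, stood at 49.3, 29.8, 42.0 and 44.1 CPM in KO, against 14.1, 13.8, 19.1 and 17.3 CPM in WT (1.36 ± 0.20, adjusted p = 2.99e-05). Of 13 purine receptors and ectonucleotidases 2 rose and 0 fell (median 0.16, range 2 to 3 higher and 0 to 1 lower, 1 and 0 with the covariate). Ptafr, the receptor of platelet-activating factor, rose (0.63 ± 0.081) and Alox5ap, which feeds leukotriene synthesis, fell (−0.35 ± 0.087), in a list of 23 lipid mediator genes with 4 up and 4 down (median −0.08, range 2 to 5 higher and 2 to 5 lower, 1 and 4 with the covariate).

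Of 25 matrix proteases and inhibitors 7 rose and 4 fell (median 0.09, 6 and 2 with the covariate). Serpine2, an inhibitor of thrombin and plasminogen activators, was at 90.7, 91.5, 112 and 105 CPM in KO, against 25.6, 39.4, 37.2 and 37.6 CPM in WT (1.51 ± 0.13, adjusted p = 2.15e-08). Adamts1, a secreted protease that cuts proteoglycans, was at 127, 67.1, 123 and 155 CPM in KO, against 37.8, 32.0, 36.0 and 42.9 CPM in WT (1.66 ± 0.18, adjusted p = 5.92e-07), and Timp3, an inhibitor of metalloproteases, at 25.7, 29.6, 29.5 and 33.6 CPM in KO, against 6.09, 11.9, 9.18 and 11.0 CPM in WT (1.64 ± 0.24, adjusted p = 3.89e-05). KO replicate 2 was the lowest KO library for Adamts1 and still above all WT libraries. Vcan, the proteoglycan versican, rose (2.00 ± 0.45), as 1 of 2 that rose of 16 collagens, laminins and matrix glycoproteins, 2 of which fell (median −0.37, range 2 higher and 1 to 2 lower, 2 and 0 with the covariate).

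Calcium-binding S100 proteins rose in part. S100a11 was at 92.6, 59.1, 76.4 and 70.5 CPM in KO, against 30.0, 34.7, 31.3 and 31.0 CPM in WT (1.24 ± 0.13, adjusted p = 2.54e-07) and S100a1 at 107, 102, 95.9 and 114 CPM in KO, against 58.8, 61.2, 68.9 and 63.2 CPM in WT (0.73 ± 0.089, adjusted p = 3.30e-06). Calr, a chaperone and calcium store of the endoplasmic reticulum, rose by 0.31 ± 0.065. Of 28 calcium genes 7 rose and 4 fell (median −0.04, range 5 to 8 higher and 2 to 5 lower, 4 and 0 with the covariate). The tetraspanins Tspan7 (2.03 ± 0.22), Cd9 (0.64 ± 0.10) and Cd63 (0.34 ± 0.062) rose, among 24 tetraspanins and annexins with 4 up and 2 down (median 0.00, range 3 to 5 higher and 1 to 3 lower, 4 and 0 with the covariate). Of 26 actin genes 5 rose, among them Fscn1, which bundles filopodial actin (1.75 ± 0.27), and 4 fell (median 0.02, range 3 to 5 higher and 3 to 5 lower, 3 and 3 with the covariate), among them Lcp1, the leukocyte plastin (−0.33 ± 0.063).

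Nutrient handling followed. Of 25 amino acid transporters 8 rose and 2 fell (median 0.20, 4 and 2 with the covariate). Slc7a5, the transporter of large neutral amino acids, was at 29.8, 25, 30.6 and 36.7 CPM in KO, against 8.61, 9.37, 11.1 and 14.2 CPM in WT (1.48 ± 0.21, adjusted p = 2.43e-05). The glutamate transporters Slc1a2 (3.81 ± 0.34) and Slc1a3 (2.63 ± 0.52) rose as well, both of them strongly expressed by astrocytes, and Slc25a13, the mitochondrial aspartate-glutamate carrier, rose by 0.52 ± 0.11. In the mTORC1 and nutrient sensing list of 32 genes 6 rose and 1 fell (median 0.16, range 4 to 9 higher and 0 to 1 lower, 2 and 0 with the covariate). The sestrins, which restrain mTORC1 when amino acids are short, led it, with Sesn1 at 91.7, 80.3, 85.0 and 81.0 CPM in KO, against 47.0, 49.3, 56.8 and 47.6 CPM in WT (0.75 ± 0.10, adjusted p = 1.17e-05) and Sesn3 at 12.5, 13.9, 13.9 and 14.9 CPM in KO, against 7.14, 7.72, 7.97 and 5.08 CPM in WT (0.99 ± 0.19, adjusted p = 6.20e-04). Of 27 sugar, nucleoside and vitamin carriers 4 rose and 1 fell (median 0.05, range 3 to 5 higher and 1 to 2 lower, 1 and 1 with the covariate), with the phosphate carrier Slc20a1 up by 0.74 ± 0.11.

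Other redox genes rose. Dio2, a selenoenzyme that activates thyroid hormone, stood at 7.10, 6.82, 8.44 and 9.36 CPM in KO, against 1.68, 1.10, 2.60 and 1.58 CPM in WT (2.14 ± 0.29, adjusted p = 1.58e-05), and Gpx3, a secreted glutathione peroxidase, rose by 1.38 ± 0.24. Of 36 fatty acid oxidation and peroxisome genes 2 rose and 4 fell (median 0.04, range 2 to 4 higher and 3 to 5 lower, 0 and 2 with the covariate), with Cpt1a, which admits fatty acids to mitochondria, at 39.6, 47.3, 39.4 and 44.5 CPM in KO, against 73.3, 66.2, 60.4 and 67.0 CPM in WT (−0.65 ± 0.10, adjusted p = 1.15e-04) and Cat, catalase, down (−0.58 ± 0.11). Got1, the cytosolic aspartate transaminase, fell (−0.48 ± 0.10) in a list of 31 TCA cycle and matrix enzymes with 1 up and 1 down (median 0.08, range 0 to 2 higher and 1 to 2 lower, 0 and 1 with the covariate).

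Transcription and signalling regulators gave few large changes. Bhlhe40, a repressor tied to the circadian clock and to macrophage metabolism, was at 45.1, 43.9, 45.4 and 45.1 CPM in KO, against 15.1, 17.4, 22 and 21.5 CPM in WT (1.23 ± 0.17, adjusted p = 1.77e-05). Of 17 clock genes 4 rose and 0 fell (median 0.23, range 3 to 6 higher and 0 to 1 lower, 2 and 0 with the covariate). Klf9, a target of the glucocorticoid receptor, rose (1.61 ± 0.21, adjusted p = 8.30e-06), with 1 of 13 receptor targets up and 2 down (median −0.07, range 1 higher and 0 to 3 lower, 1 and 1 with the covariate). Dnmt3a, a DNA methyltransferase, was at 323, 413, 364 and 351 CPM in KO, against 251, 207, 218 and 251 CPM in WT (0.64 ± 0.082, adjusted p = 5.32e-06), while of 41 chromatin genes 2 rose and 3 fell (median −0.05, range 2 to 4 higher and 2 to 3 lower, 2 and 2 with the covariate). Gadd45a, a growth arrest and DNA damage gene, stood at 162, 95.1, 151 and 147 CPM in KO, against 68.5, 48.0, 70.8 and 62.8 CPM in WT (1.15 ± 0.15, adjusted p = 1.03e-05), and of 29 p53 and BCL2 family genes 5 rose and 2 fell (median 0.08, range 3 to 6 higher and 1 to 2 lower, 1 and 1 with the covariate). Of 11 tested imprinted genes, from 25 listed, 5 rose and 1 fell (median 0.24, range 5 higher and 0 to 1 lower, 4 and 0 with the covariate), with Dlk1 (3.68 ± 0.60), Peg3 (2.20 ± 0.42) and Snrpn (2.29 ± 0.44) following Nnat. Here too entry to the test favoured members high in KO. Il7r, a cytokine receptor chain, rose (0.75 ± 0.10), as did the suppressor Socs6 (0.58 ± 0.10), in a list of 34 with 5 up and 4 down (median 0.03, range 4 to 7 higher and 1 to 7 lower, 2 and 0 with the covariate). Xiap, an inhibitor of caspases and a ubiquitin ligase, fell (−0.51 ± 0.074, adjusted p = 3.08e-05), among 42 ubiquitin ligases and deubiquitinases with 3 up and 6 down (median −0.02, range 2 to 5 higher and 3 to 8 lower, 2 and 4 with the covariate).

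Signalling and immune lists had lower shares of called members than growth factor receptors. Of 23 TGF-beta and BMP genes 4 rose and 3 fell (median 0.01, range 3 to 5 higher and 1 to 4 lower, 2 and 0 with the covariate), with the ligand Tgfb2 (3.72 ± 0.34) and the receptor Bmpr1a (1.42 ± 0.21) up. Of 18 Notch, Wnt and Hippo genes 3 rose and 2 fell (median −0.15, range 2 to 4 higher and 1 to 2 lower, 1 and 2 with the covariate). There the Notch target Hey1 rose (1.75 ± 0.28) and the Notch ligand Jag1 fell (−0.73 ± 0.15). Of 23 hypoxia-inducible genes 4 rose and 4 fell (median 0.18, range 2 to 6 higher and 2 to 4 lower, 0 and 2 with the covariate), with Cited2, which restrains HIF, at −0.49 ± 0.094 and Mxi1, a MYC antagonist, at −0.59 ± 0.12. Of 15 TNF superfamily genes 2 rose and 0 fell (median 0.18, range 2 to 5 higher and 0 lower, 1 and 0 with the covariate), the ligand Tnfsf12 among those that rose (0.66 ± 0.13). Of 29 phosphoinositide genes 2 rose and 3 fell (median −0.04, range 1 to 2 higher and 3 to 6 lower, 0 and 1 with the covariate), and Inpp5d, the lipid phosphatase SHIP1 of myeloid cells, fell by 0.59 ± 0.10. Of 16 polyamine, creatine and arginine genes 2 rose and 3 fell (median 0.04, range 2 to 3 higher and 1 to 4 lower, 2 and 1 with the covariate). Paox, a polyamine oxidase (0.86 ± 0.14), and Slc6a8, the creatine carrier (0.56 ± 0.13), were the rises. Semaphorins, plexins and neuropilins held 13 tested genes, of which 3 rose and 0 fell (median 0.02, range 0 to 3 higher and 0 to 1 lower, 0 and 0 with the covariate). Of 15 brakes on MAP kinases 0 rose and 1 fell (median −0.10, range 0 to 1 higher and 0 to 2 lower, 0 and 0 with the covariate). Of 22 inflammasome and cell death genes 0 rose and 3 fell (median −0.21, range 0 to 1 higher and 0 to 2 lower, 0 and 0 with the covariate). The MHC class II list had 10 tested genes, of which 2 rose and 0 fell (median 0.23, range 1 to 2 higher and 0 lower, 0 and 0 with the covariate).

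Secretory and membrane lists gave similar counts. Of 40 N-glycosylation and sialic acid genes 7 rose and 3 fell (median 0.09, range 4 to 8 higher and 3 to 5 lower, 1 and 5 with the covariate). Rpn1, a subunit of the oligosaccharyltransferase, stood at 379, 275, 322 and 386 CPM in KO, against 175, 207, 202 and 238 CPM in WT (0.73 ± 0.11, adjusted p = 4.84e-05), and Man1a, a Golgi mannosidase, fell (−0.41 ± 0.079). Among 36 SNAREs and fusion genes 5 rose and 2 fell (median 0.07, range 2 to 9 higher and 0 to 2 lower, 1 and 0 with the covariate), with Syt11, a synaptotagmin, up (0.87 ± 0.18). Among 39 COPI, COPII and export genes 2 rose and 3 fell (median 0.05, range 0 to 6 higher and 2 to 5 lower, 0 and 1 with the covariate), with the COPII coat gene Sec24d down (−0.57 ± 0.10). The 45 endosomal sorting genes gave 3 that rose and 2 that fell (median 0.07, range 0 to 4 higher and 1 to 3 lower, 0 and 0 with the covariate). Among 23 channels 2 rose and 2 fell (median −0.04, range 1 to 3 higher and 0 to 3 lower, 1 and 0 with the covariate), with Kcnj10, a potassium channel of astrocytes, up (3.03 ± 0.54). Among 23 zinc and copper genes 3 rose and 1 fell (median −0.05, range 2 to 3 higher and 0 to 2 lower, 1 and 0 with the covariate), with the brain metallothionein Mt3 up (3.01 ± 0.56).

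Lists of synthesis and gene expression followed. Of 31 folate and nucleotide synthesis genes 6 rose and 1 fell (median 0.08, range 4 to 6 higher and 0 to 2 lower, 0 and 1 with the covariate). Of 22 glycogen, hexosamine and pentose phosphate genes 2 rose and 3 fell (median −0.05, range 0 to 3 higher and 2 to 4 lower, 0 and 1 with the covariate), Taldo1 among them. Of 34 phospholipid genes 1 rose and 2 fell (median 0.05, range 1 to 2 higher and 0 to 5 lower, 0 and 0 with the covariate). Splicing factors gave 5 that rose and 4 that fell of 40 (median −0.02, range 2 to 7 higher and 4 to 7 lower, 0 and 0 with the covariate). Translation factors gave 1 that rose and 3 that fell of 39 (median 0.05, range 1 higher and 2 to 6 lower, 0 and 1 with the covariate), with the helicase Eif4a2 down (−0.39 ± 0.068). Aminoacyl-tRNA synthetases gave 2 that rose and 1 that fell of 24 (median 0.06, range 1 to 4 higher and 0 to 4 lower, 0 and 0 with the covariate). Mitochondrial ribosomal proteins gave 0 that rose and 2 that fell of 45 (median 0.03, range 0 to 3 higher and 0 to 2 lower, 1 and 0 with the covariate), and ribosome assembly genes 1 that rose and 0 that fell of 37 (median −0.08, range 1 higher and 0 to 3 lower, 0 and 0 with the covariate). Histone genes gave 3 that rose and 1 that fell of 18 (median 0.27, range 1 to 6 higher and 0 to 2 lower, 0 and 0 with the covariate). Macrophage transcription factors and nuclear receptors gave 3 that rose and 4 that fell of 40 (median −0.02, range 1 to 4 higher and 1 to 8 lower, 1 and 2 with the covariate), with Sall3 up (1.61 ± 0.39). Of 9 sex-linked genes 1 rose and 0 fell (median −0.01, range 0 to 2 higher and 0 to 1 lower, 0 and 0 with the covariate).

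**Figure D3:**
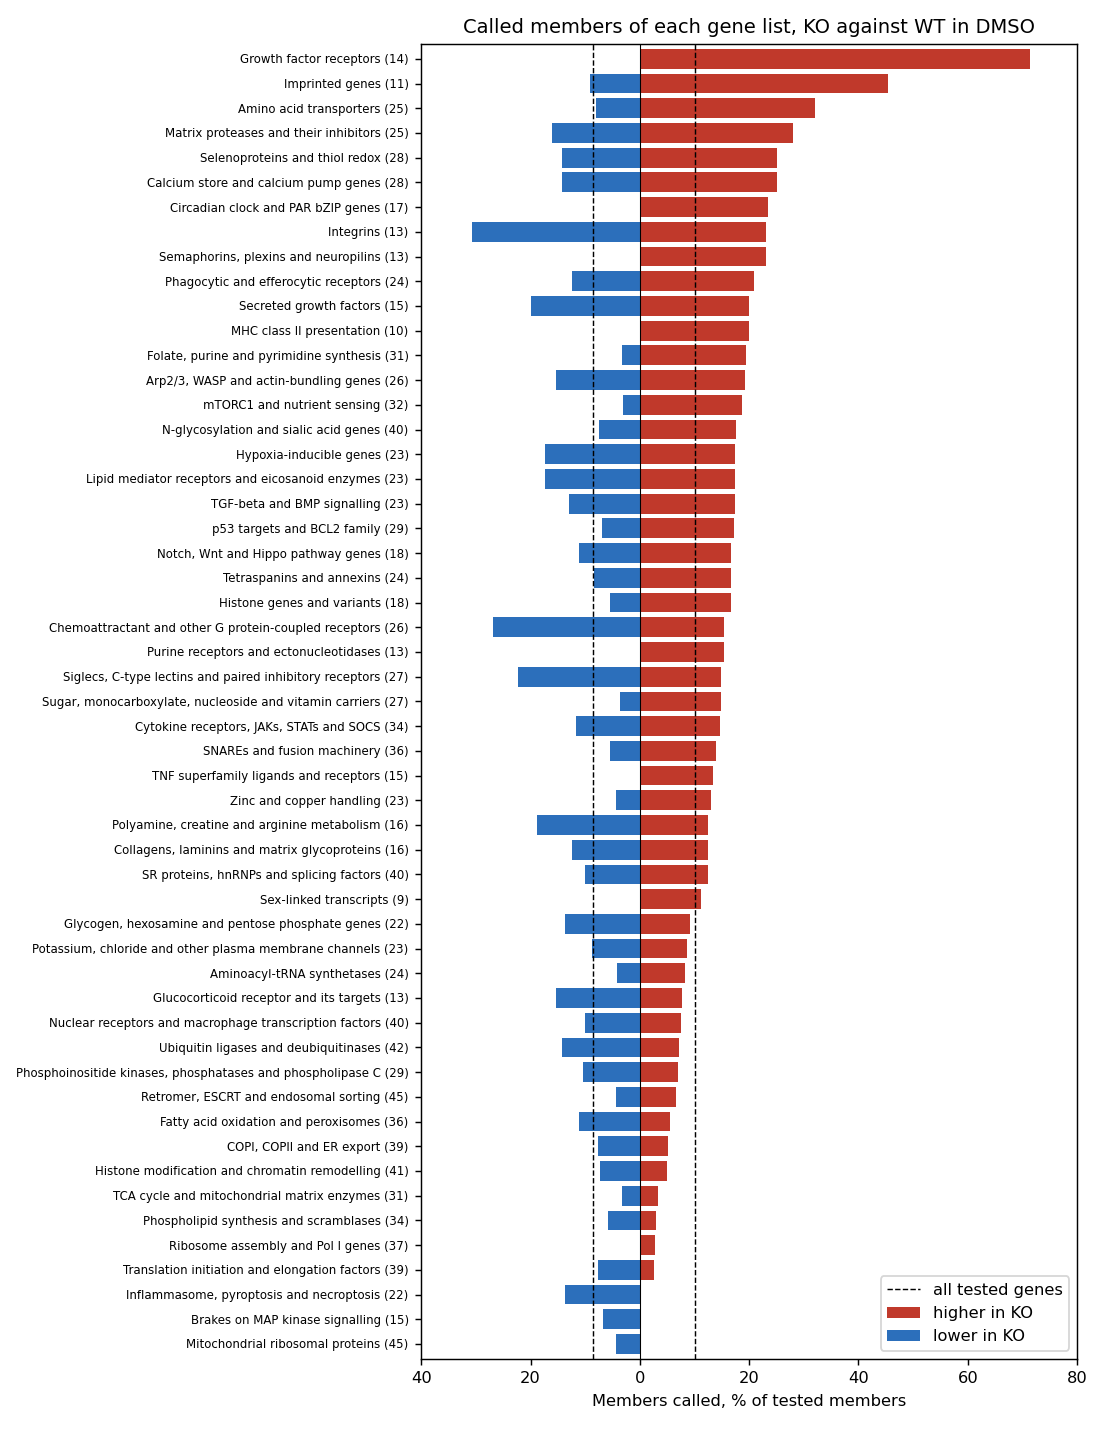
Share of tested members called higher (right) and lower (left) in KO for 53 gene lists, with the number tested in brackets and dashed lines at 10.1% and 8.56%, the shares over all tested genes. Growth factor receptors reach the highest share called higher, and mitochondrial ribosomal proteins have 0 higher.

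Genes next to Grn on its chromosome moved in both directions. Of 40 tested neighbours, 20 on each side, 6 were higher, 6 were lower and 28 did not pass, with a median of −0.0066. Over all tested genes 10.1% were higher and 8.56% lower. The nearest tested gene on one side, Slc25a39, did not pass (0.13 ± 0.10). On the other side Fam171a2 was called at 2.13 ± 0.44, with a mean of 3.25 CPM in KO against 0.73 CPM in WT. The extremes ran from −1.17 to 4.25, the highest being Gfap, a filament of astrocytes. Order came from an annotation of another build, so no coordinates are given.

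KO replicate 2 was unlike the other KO libraries. The first principal component of 6083 genes held 60.5% of the variance. KO scores on it were 19.7, 0.35, 15.5 and 20.8, against −16.9, −17.4, −14.2 and −7.8 in WT. The second held 13.1%, and KO replicate 2 scored 17.3 on it. The median gene of KO replicate 2 lay 0.215 log2 units from the median of the other 3 KO libraries, against 0.120 to 0.146 for each of the others, and 94 genes lay over 2-fold away, against 1 to 3. Within KO the median SD of log2 CPM was 0.166, and 0.124 without this library, beside 0.141 in WT. WT replicate 2, the library with the fewest counts, scored 2.81 on the second component, and KO replicate 2 had the fewest counts in KO.

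**Figure D4:**
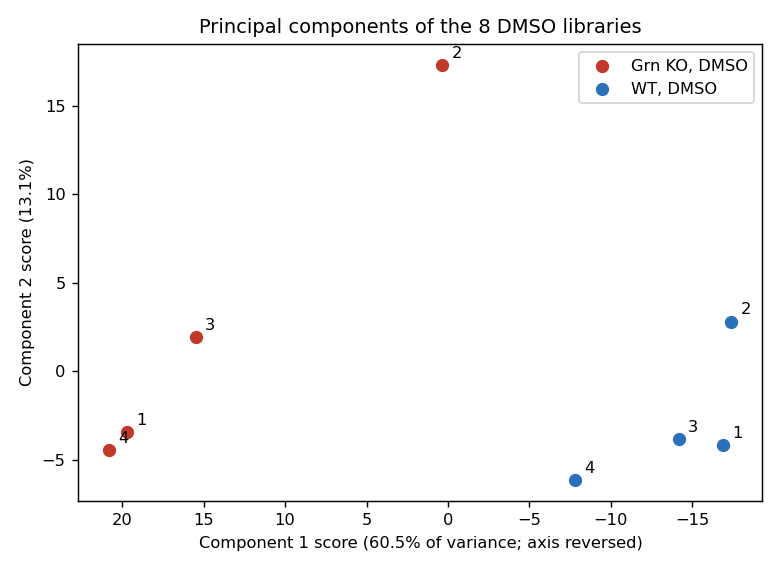
Scores of the 8 libraries on the first and second principal components, with the first axis reversed so that KO lies left of WT and points numbered by replicate. KO replicate 2 lies between the groups on the first component and alone on the second.

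KO replicate 2 reached the WT range for many called genes. It lay at or below the highest WT library for 273 of the 1236 genes called higher (22.1%), against 1.86% to 2.27% in the other KO libraries. For 433 of the 1051 genes called lower (41.2%) it lay at or above the lowest WT library, against 2.00% to 3.33%. The called processed pseudogenes gave 260 of 349, against 1 to 6 in the others. Protein-coding genes called lower gave 156 of 653, against 16 to 25. These genes were called with the library in the fit. In a count that uses the other 3 KO libraries alone, 1240 genes had those 3 above all WT libraries. KO replicate 2 lay within or below the WT range in 56.9% of them, against 7.45% to 13.2% of 577 to 615 genes when each of the others was left aside. In the opposite direction the share was 53.2% of 1116 genes, against 10.5% to 15.7% of 583 to 619. The smaller sets each need KO replicate 2 itself to lie outside the WT range, so these shares are of unlike sets of genes.

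**Figure D5:**
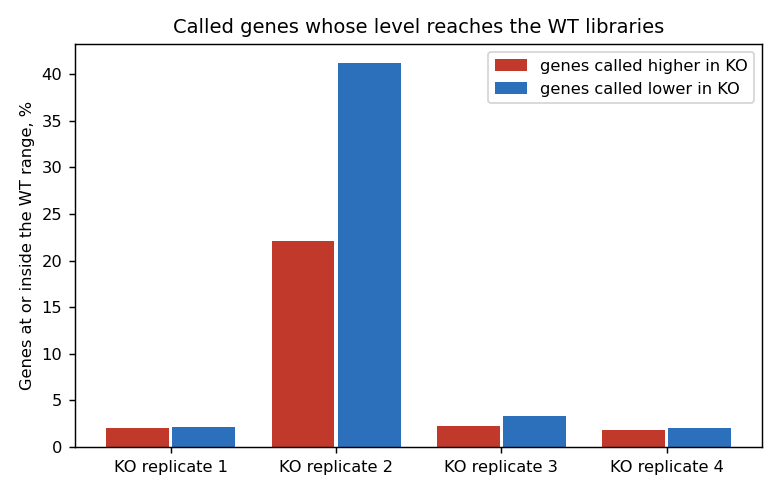
Share of the genes called higher and lower whose level in each KO library lies within the WT range or past its far side, in percent. KO replicate 2 stands at 22.1% and 41.2%, and the other 3 are all below 4%.

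Genes could be named on both sides of this pattern. Lrpprc, a regulator of mitochondrial mRNA, stood at 451, 173, 354 and 354 CPM in KO, against 154, 169, 163 and 206 CPM in WT. Sec61a1, the channel of the endoplasmic reticulum, stood at 269, 124, 226 and 238 CPM in KO, against 113, 95.9, 118 and 134 CPM in WT, and Dcaf12, a substrate receptor of a ubiquitin ligase, at 140.0, 53.9, 109 and 118 CPM in KO, against 57.8, 49.1, 60.8 and 66.0 CPM in WT. Of the KO libraries only replicate 2 lay within the WT range in these 3 genes, and Sec61a1 was chosen after its values were seen. Adjusted p-values were 5.66e-04, 3.60e-04 and 0.00160, and over the alternatives 2.79e-20 to 0.298, 2.51e-16 to 0.187 and 9.61e-12 to 0.504, each highest with the pseudogene covariate. Lars2, the mitochondrial leucyl-tRNA synthetase, stood at 8.60, 47.5, 12.7 and 15.5 CPM in KO, against 72.9, 58.7, 57.5 and 47.3 CPM in WT (−1.56 ± 0.31, adjusted p = 0.00105, and 7.29e-25 to 0.0647 over the alternatives, the highest with the pseudogene covariate). Here too only KO replicate 2 reached WT levels. The genes farthest above the other KO libraries in replicate 2 were 2900060B14Rik, Lars2, AW112010 and 5 pseudogene or unnamed models (Gm2387, Gm7476, Rpl10a-ps1, Rpl10-ps5 and Gm10358). Those farthest below were Lysmd4, Sh3rf1, Dcaf12, Ulk1, Lrpprc, Sertad1, Tiprl and Cherp. Ulk1, a kinase that starts autophagy, stood at 75.9, 35.3, 56.0 and 77.9 CPM in KO, against 40.5, 34.5, 37.4 and 44.5 CPM in WT.

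By its Grn level KO replicate 2 matched its label, and by neural markers, which do not measure the genotype, it lay with the other KO libraries. Its Grn level of 15.2 CPM was far below WT. Its neuron marker sum of 121.1 CPM was the highest of all libraries. Of 20 neural markers called higher 0 lay at or below the highest WT library in it, against 0 to 1 in the other KO libraries. These markers were called with all KO libraries in the fit, which favours such a result. Of the 54 list scores KO replicate 2 was the lowest KO library in 23 and lay within the WT range in 32, against 20 to 27 in each of the others.

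Leaving the library out gave 1130 further genes that passed, 445 higher and 685 lower, of which 853 were protein-coding and 235 processed pseudogenes. Of the 2287 genes 2215 passed again in the same direction, 72 did not, and their median absolute difference was 0.726 without it, against 0.641 with it. Over all genes 1636 of 12520 tested were called higher without it and 1709 lower, against 1236 and 1051 of 12272 with it. Among lists, the members called higher without it numbered 9 for SNAREs and fusion machinery and 9 for phagocytic receptors, against 5 each with it, and 6 for COPI, COPII and export genes, against 2. Lower calls moved too, to 8 from 4 for macrophage transcription factors and nuclear receptors and to 6 from 3 for phosphoinositide genes.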

How the data were processed

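The deposited table of the authors holds expected counts for 56980 genes, made with Salmon on GRCm39 per the submitters' processing notes. The sources used here do not give versions, the annotation release or whether duplicates were removed by molecular identifier. Per the labels' protocols the libraries are 3' mRNA tags with molecular identifiers, so tags come from transcript ends. Rounding was needed for 13.7% of the values and changed 0.0207% of the total.

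Genes were kept by filterByExpr (minimum count 10, minimum total 15), which left 12272. They were scaled by TMM and fitted with edgeR 4.0.16 in R 4.3.3, 1 mean per group over all 16 libraries, so the rimeporide groups add to the estimate of spread. The quasi-likelihood test of KO minus WT in DMSO was adjusted by the Benjamini-Hochberg method over all tested genes, with a threshold of 0.05. Standard errors are the log2 difference over the square root of F. The labels call the libraries biological replicates and do not say from which animals or cultures they came, so p-values measure the spread between libraries. The fit was tested on simulated data. Biotypes and gene order came from GENCODE M21, where 115 tested genes had no match. The pseudogene score is a library's mean log2 CPM of processed pseudogenes, each centred over the 16 libraries.

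Members of 54 pathway and 14 marker lists were chosen with earlier results of these data known. Genes were named by a rule: Grn, the 12 largest changes and the 12 smallest p in each direction, among genes with a mean of at least 20 CPM for the largest changes, up to 4 called members of a list, and the 8 genes farthest each way in KO replicate 2. Exceptions are named as such. Some genes that the rule selects, and 1 list, are not reported here. Alternatives were other scalings, DESeq2 1.42.0, other filters, the 8 DMSO libraries alone, a replicate block, the pseudogene covariate and leaving out each library.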

Additional observations from a re-analysis of the deposited data

Results flagged for a closer look

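A library whose gap to the next library of its group was above Dixon's critical value as a share of the group's range was marked, and chance marks about 1 in 20 groups. The values were mostly those of genes named above. Some of these genes were named because KO replicate 2 lay farthest from the other KO libraries. Marks of KO replicate 2 on AW112010, Gm2387, Gm7476 and Rpl10a-ps1 were thus partly fixed by that choice. Of 296 groups of 4 values tested, 17 (5.74%) had a marked library, and in 9 of them it was KO replicate 2. These were AW112010 at 43.2 CPM (others 10.1 to 15.4 CPM), Cd9 at 517 CPM (others 693 to 719 CPM), Gm2387 at 50.7 CPM (others 13.1 to 18.4 CPM), Gm7476 at 31.6 CPM (others 8.73 to 9.81 CPM), Lcp1 at 633 CPM (others 563 to 573 CPM), Ly6e at 173 CPM (others 44.5 to 60.2 CPM), Rpl10a-ps1 at 39.1 CPM (others 11.5 to 14.5 CPM), Ugt1a10 at 30.9 CPM (others 17.5 to 18.2 CPM) and Vcan at 8.19 CPM (others 2.96 to 3.77 CPM). The remaining ones were Cat at 139.9 CPM in WT replicate 4 (others 172 to 178 CPM), Ddr1 at 13.8 CPM in WT replicate 2 (others 9.18 to 9.87 CPM), Gpm6b at 24.0 CPM in WT replicate 2 (others 4.85 to 6.30 CPM), Man1a at 104 CPM in KO replicate 1 (others 118 to 120.1 CPM), Ntrk2 at 1.93 CPM in WT replicate 4 (others 0.827 to 0.866 CPM), Serpine2 at 25.6 CPM in WT replicate 1 (others 37.2 to 39.4 CPM), the share of ribosomal protein genes at 5.94% in WT replicate 4 (others 6.45 to 6.53%) and the summed monocyte markers at 1.26 CPM in WT replicate 1 (others 3.03 to 3.33 CPM).

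The KO minus WT difference itself differed between rimeporide and DMSO for 2 genes by the interaction term of edgeR. For Fbxo34 the interaction was −0.94 (DMSO minus rimeporide, adjusted p = 0.0368). For Ncaph2 it was −0.98 (DMSO minus rimeporide, adjusted p = 0.0368).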

How the results depend on the processing

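Grn kept its direction and its call under every alternative run, between −7.22 and −7.00. The counts of called genes stayed within 1.5 times of 2287 (1236 higher and 1051 lower) under other scalings (2271 to 2339), DESeq2 (2344), other filters (2333 and 2407) and the 8 DMSO libraries alone (1734). Scaling by TMM over protein-coding genes turned the balance of the calls, with 1084 higher and 1255 lower, so that 46.3% were higher, against 54.0%. With the pseudogene covariate the called genes were 808, 551 higher and 257 lower. With a library left out the total ran from 1430 to 3345, the higher calls from 889 to 1636 and the lower calls from 541 to 1709. Same-numbered KO and WT libraries had correlations of deviations of 0.045, 0.353, 0.017 and 0.407 for replicates 1 to 4. Those of differently numbered libraries ran from −0.398 to 0.234, the latter for KO replicate 1 with WT replicate 4. The labels do not say what the numbers mark, so the main fit did not take them as pairs. A factor shared by same-numbered libraries, as in replicates 2 and 4, was not tested. The replicate block gave 2936 called genes, 1528 higher and 1408 lower, 2281 of them shared with the 2287. With no filter 1865 of the 2333 were shared with the 2287, and the adjusted p of Ly6e was 4.04e-15 there, so the lowest values over alternatives quoted for single genes can come from that fit. The cause of these changes was not tested. Depth limits genes with means of a few CPM, where a library of 3666367 counts holds few tags per gene.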

Other observations

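Called genes were spread over the chromosomes. The share called ran from 16.1% on chromosome 7 to 25.4% on the X chromosome among those with over 300 tested genes, beside 18.6% over all. Of 365 long non-coding RNA genes 18 were higher in KO and 23 were lower. The interaction of genotype with rimeporide had an unadjusted p under 0.05 for 2277 of the 12272 genes.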
